A study of Homo sapiens with 9 samples.

Results

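The clustered protocadherins are cell-surface adhesion proteins whose genes lie in tandem on chromosome 5 as an alpha, a beta and a gamma cluster. The members were chosen by name, as the protein-coding genes of chromosome 5 whose symbol starts with PCDHA, PCDHB, PCDHGA, PCDHGB or PCDHGC. This rule uses no measured value, but earlier results of these data were known when it was set. This gave 53 of the 60609 genes in the deposited count tables, with 15 in the alpha cluster, 16 in the beta cluster and 22 in the gamma cluster. RNA had been sequenced from MCF-10A, a line of human breast epithelium that does not form tumours, in 3 genotypes with 3 libraries each. H1047R and E545K are knock-in lines named for the amino acid change they carry in PIK3CA, which encodes the p110-alpha catalytic subunit of PI 3-kinase, and WT is the parental line. Medium with 5% horse serum, insulin, hydrocortisone and cholera toxin was common to all groups, with 0 ng/ml epidermal growth factor (EGF) for H1047R and E545K cells and 20 ng/ml for WT cells. Every group spent its last 24 h in assay medium with 1% stripped serum and 0.2 ng/ml EGF. The knock-in genotypes therefore came with another EGF history than WT, and the sources used here do not say how many clones stand behind each knock-in line.

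Clustered protocadherins are known best from neurons, where a cell displays a small set of them and recognises cells with the same set. Every alpha and gamma gene has its own first exon with its own promoter, and this exon is spliced to 3-prime exons that all genes of the cluster share. Beta genes have no shared exons. The factor CTCF, a DNA-binding protein that works with the ring-shaped cohesin complex, binds many of these promoters and brings them to distant enhancers, and methylation of promoter DNA keeps unused promoters silent. The last genes of the alpha and gamma clusters, named C-type, are less variable in use than the rest. PCDHGC3 is known to be transcribed in tissues other than brain as well.

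Reads were counted for genes, and a read on shared exons was counted for every gene that holds them. In the annotation, all 15 alpha genes shared 2866 exon bases and all 22 gamma genes shared 2177, while the beta genes shared 0 with each other. Single alpha and gamma genes are therefore not separate measurements. For these genes the reads outside the shared exons were also estimated, as the count of a gene minus the lowest count among the genes of its cluster in the same library. The estimate is too low by the own reads of that lowest gene, and it was tested only after the data had been seen. Values are counts per TMM-scaled library total in the usual unit CPM, unless stated otherwise, and each difference on the log2 scale is given with its standard error.

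Total counts ranged from 377093507 to 605972919 in H1047R libraries, from 95533991 to 134245702 in E545K libraries and from 95091894 to 136132315 in WT libraries. The H1047R libraries were deposited in a table of their own, so that table and that genotype cannot be told apart. Their spread was also wider, with a biological coefficient of variation of 0.215 in H1047R, 0.0288 in E545K and 0.0328 in WT. All 7 breast epithelial markers listed reached 1 CPM in every genotype, among them KRT5 and TP63. Of these 7, 2 rose and 4 fell in H1047R against WT, and 0 rose and 6 fell in E545K against WT, with medians of -0.29 and -0.46 on the log2 scale. EPCAM averaged 23.6 CPM in H1047R, 19.4 CPM in E545K and 35.8 CPM in WT. Of 6 neuronal markers only SYT1, a synaptic vesicle protein, reached 1 CPM, and SNAP25, STMN2 and GAP43 averaged at most 0.028 CPM in any genotype. Summed over the 6, the neuronal markers ranged from 2.37 to 2.72 CPM in H1047R, from 3.46 to 4.64 CPM in E545K and from 2.74 to 2.86 CPM in WT. SYT1 rose by 0.61 in E545K against WT and differed by -0.06 in H1047R against WT, which did not pass the test. Among fibroblast markers, COL1A1 rose in both knock-in lines, by 0.49 in H1047R and 0.33 in E545K. COL1A2 and COL3A1, which averaged at most 0.128 CPM, fell in H1047R against WT, with log2 differences of -3.34 and -3.13. In E545K neither of them passed the test. Endothelial markers were also mixed. KDR rose by 1.37 in H1047R and 0.31 in E545K, and VWF fell, with log2 differences of -1.89 and -1.03. The immune marker CD68 fell, with log2 differences of -1.01 and -0.63 in the same order. The part of these markers in the results that follow was not tested. PIK3CA itself had 42.4, 43.9 and 41.7 CPM in H1047R, 39.1, 37.7 and 37.4 CPM in E545K, and 43.9, 46.5 and 47.9 CPM in WT, which checks no genotype because counts do not show the changed base.

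Of the 53 members, 52 passed the filter on low counts. PCDHB1, the exception, had 0 counts in all H1047R libraries and at most 0.106 CPM elsewhere. Because that filter passes a gene through the group in which it is high, the counts that follow cover the 52 members tested and not every member. In E545K against WT, 44 members were higher and 3 lower, where 36.6% of all 26412 genes tested were called at an adjusted p under 0.05, 17.7% higher and 18.9% lower (edgeR's quasi-likelihood test with Benjamini-Hochberg adjustment). In H1047R against WT, 47 were higher and 1 lower, beside a background of 55.5% (27.4% higher and 28.1% lower). In H1047R against E545K, 45 were higher and 2 lower, beside a background of 53.2% (25.9% higher and 27.3% lower). Spread was estimated over all 9 libraries, so the wider H1047R spread enters every comparison and its background. In fits of only the 2 groups compared, 12585 of 23687 genes were called in E545K against WT and 14049 of 28472 in H1047R against WT. In that fit of E545K against WT, 44 members were again higher and 3 lower. The backgrounds given here thus depend on the model. Most members hold the shared alpha or gamma reads. With reads outside the shared exons, 32 were higher and 2 lower of 47 tested in H1047R against WT, 22 higher and 5 lower in E545K against WT, and 19 higher and 2 lower in H1047R against E545K, beside 55.4%, 36.5% and 53.1% of all genes called. Higher by at least 2-fold were 25 members in H1047R against WT, 21 in E545K against WT and 7 in H1047R against E545K, beside 10%, 4.52% and 7.74% of all genes tested. The median log2 difference of the members was 0.58 in E545K against WT, 0.90 in H1047R against WT and 0.34 in H1047R against E545K, where the medians over all genes tested were 0.003, 0.021 and 0.016. The 2 comparisons with WT share the WT libraries. Whether the replicates were grown as separate cultures is not stated, so each p-value reflects library-to-library spread that may be technical. In bulk RNA, more cells that transcribe a gene and more RNA per cell cannot be told apart.

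RNA of the alpha cluster was more abundant in both knock-in lines than in WT, by 15.0-fold in H1047R and 9.94-fold in E545K with each shared read counted once. On that scale the alpha cluster had 37.5, 39.8 and 40.3 CPM in H1047R libraries, 24.7, 25.4 and 27.7 CPM in E545K libraries, and 3.21, 2.06 and 2.56 CPM in WT libraries. No library of a knock-in line came near the WT level, and every H1047R library was above every E545K library. Summed counts of the 15 genes differed by 4.09 ± 0.07 on the log2 scale in H1047R against WT (adjusted p = 5.63e-15) and by 3.63 ± 0.07 in E545K against WT (adjusted p = 1.03e-13, edgeR), which is 17.1-fold and 12.5-fold. This sum holds each shared read once for every gene. In the fit with each shared read counted once, the log2 difference was 3.89 ± 0.10 in H1047R against WT (adjusted p = 3.25e-13, edgeR). In E545K against WT it was 3.29 ± 0.11 (adjusted p = 1.07e-11, edgeR). On summed counts, the cluster rose by a further 0.46 ± 0.06 on the log2 scale in H1047R against E545K (adjusted p = 1.98e-05, edgeR). With shared reads counted once this was 0.60 ± 0.08 (adjusted p = 2.89e-05, edgeR). The summed counts were called in the table in which each cluster was a single row, where 36.5% of genes were called in E545K against WT, 55.4% in H1047R against WT and 53.1% in H1047R against E545K.

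**Figure D1:**
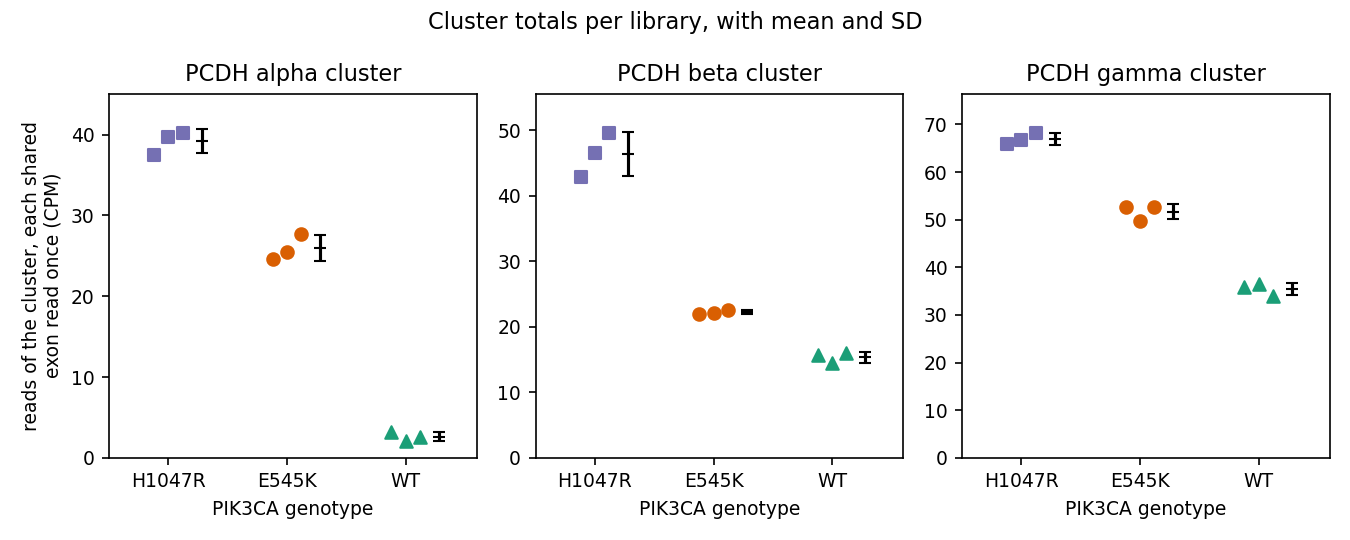
Reads of each protocadherin cluster per library (y axis, CPM, shared exon reads counted once) by PIK3CA genotype (x axis), with the mean and SD of 3 libraries beside the points. In all 3 clusters the H1047R libraries lie highest and the WT libraries lowest, and the gap is widest in the alpha cluster, where WT libraries lie between 2.06 and 3.21 CPM.

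All 15 alpha genes were called higher in all 3 comparisons when their full counts were tested, with log2 differences of 3.09 to 4.28 in E545K against WT and 3.56 to 4.72 in H1047R against WT. These full counts all hold the same shared reads. The reads on shared exons, taken from the lowest gene of each library, stood at 13.1, 13.4 and 11.3 CPM in H1047R, 9.61, 9.14 and 9.40 CPM in E545K and 0.751, 0.782 and 0.615 CPM in WT. PCDHA5, an alpha gene whose full count was 13.2, 13.4 and 11.4 CPM in H1047R, 9.61, 9.14 and 9.40 CPM in E545K and 0.780, 0.782 and 0.615 CPM in WT, had at most 0.0749 CPM outside those exons in any library. Its rise of 4.11 ± 0.10 in H1047R and 3.68 ± 0.10 in E545K on the log2 scale was thus the rise of reads that could belong to any alpha gene. Outside the shared exons, 11 alpha genes could be tested. Of these, 10 rose in H1047R against WT and 8 in E545K against WT, and 0 fell in either, while the background was 55.4% and 36.5%. Some of the 11 were low in WT and passed the low-count filter through the knock-in libraries. PCDHA8, with 0, 1 and 12 own reads in WT, is an example. At such genes a fall could hardly be seen, so the lack of falls follows in part from the filter.

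PCDHA12 carried the most reads of its own in the alpha cluster. Outside the shared exons it had 8.62, 9.41 and 9.43 CPM in H1047R, 6.39, 6.22 and 7.14 CPM in E545K, and 0.134, 0.0423 and 0.127 CPM in WT. The knock-in libraries did not overlap with WT at any point, and the 3 WT libraries held only 18, 4 and 12 such reads. The log2 difference was 6.44 ± 0.17 in H1047R against WT (adjusted p = 3.08e-13) and 5.96 ± 0.18 in E545K against WT (adjusted p = 4.64e-12, edgeR), against 4.72 and 4.28 for its full count. PCDHA12 was also higher in H1047R than in E545K, by 0.48 ± 0.10 (adjusted p = 0.000844, edgeR). A gene on the other strand, ENSG00000278915, overlaps PCDHA12 and averaged 2.76 CPM in H1047R, 2.01 CPM in E545K and 0.0300 CPM in WT. Strand was not used in counting, so reads of these genes cannot be told apart.

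PCDHA6 came next among the variable alpha genes, with 3.86, 4.24 and 4.24 CPM outside the shared exons in H1047R, 3.25, 3.997 and 4.08 CPM in E545K and 0.661, 0.275 and 0.403 CPM in WT. The knock-in lines overlapped with each other and not with WT. It rose by 3.15 ± 0.20 in H1047R and by 3.02 ± 0.21 in E545K on the log2 scale (adjusted p = 4.39e-09 and 2.47e-08, edgeR), and the knock-in lines differed from each other by 0.13 ± 0.16, which did not pass the test (adjusted p = 0.527, edgeR). A gene on the other strand, ENSG00000279726, overlaps the start of PCDHA6 and averaged 1.52 CPM in H1047R, 1.35 CPM in E545K and 0.198 CPM in WT, so part of the PCDHA6 reads is uncertain. PCDHA11 had 1.42, 1.74 and 2.23 CPM in H1047R, 1.23, 1.30 and 1.52 CPM in E545K and 0.0892, 0.0317 and 0.0636 CPM in WT. PCDHA10 had 1.84, 2.46 and 3.09 CPM in H1047R, 0.925, 1.15 and 1.16 CPM in E545K and 0.134, 0.0106 and 0.148 CPM in WT. Both of these were near silence in WT and well above it in every knock-in library, by 4.80 ± 0.29 and 4.37 ± 0.30 for PCDHA11 and by 4.60 ± 0.37 and 3.40 ± 0.39 for PCDHA10 on the log2 scale, H1047R given before E545K. A pseudogene, PCDHA14, overlaps exons of PCDHA10 and averaged 0.611 CPM in H1047R, 0.282 CPM in E545K and 0.0530 CPM in WT, so part of the PCDHA10 reads is uncertain. PCDHA10, PCDHA11 and PCDHA12 also share more exon bases with other alpha genes, 3011, 2924 and 2953, than the 2866 found in every alpha gene. Their estimates of own reads may therefore hold reads of other alpha genes, and their rises are not fully separate measurements.

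The knock-in lines stood apart at PCDHAC1, a C-type gene. Its reads outside the shared exons came to 5.62, 5.75 and 6.26 CPM in H1047R, 1.79, 2.16 and 2.15 CPM in E545K and 0.409, 0.211 and 0.403 CPM in WT. The 3 genotypes formed separate levels with no overlap. PCDHAC1 rose by 4.08 ± 0.17 in H1047R and 2.54 ± 0.18 in E545K against WT, and by 1.54 ± 0.14 in H1047R against E545K on the log2 scale (adjusted p = 2.42e-07, edgeR). PCDHAC2, the other alpha C-type gene, moved less. It had 1.45, 1.38 and 1.14 CPM of its own in H1047R, 0.631, 0.759 and 0.688 CPM in E545K and 0.594, 0.402 and 0.361 CPM in WT. The rise of 1.52 ± 0.21 in H1047R passed the test (adjusted p = 1.82e-05) and the difference of 0.59 ± 0.22 in E545K did not (adjusted p = 0.0507, edgeR), although it did in 6 of 12 alternatives (adjusted p = 0.0125 to 0.183 over the 12).

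Per kilobase of exon not shared within the cluster, the order of own levels of these 6 genes in H1047R was PCDHA12 at 3.54 CPM, PCDHAC1 at 1.44, PCDHA6 at 1.26, PCDHA11 at 0.535, PCDHAC2 at 0.401 and PCDHA10 at 0.195. In E545K the order was PCDHA12 at 2.54 CPM per kilobase, PCDHA6 at 1.16, PCDHAC1 at 0.499, PCDHA11 at 0.401, PCDHAC2 at 0.210 and PCDHA10 at 0.0851. In WT, PCDHA6 and PCDHAC2 had the highest own level with 0.137 CPM per kilobase each, and PCDHA12 stood at 0.0391. The remaining 9 alpha genes stayed low everywhere, with at most 0.803 CPM of their own in any library, the highest value being that of PCDHA9 in H1047R. PCDHA9 still rose by 3.54 ± 0.44 in H1047R against WT and by 1.75 ± 0.37 in H1047R against E545K on the log2 scale (adjusted p = 6.28e-06 and 0.000925, edgeR). It is named here after its values were seen.

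**Figure D2:**
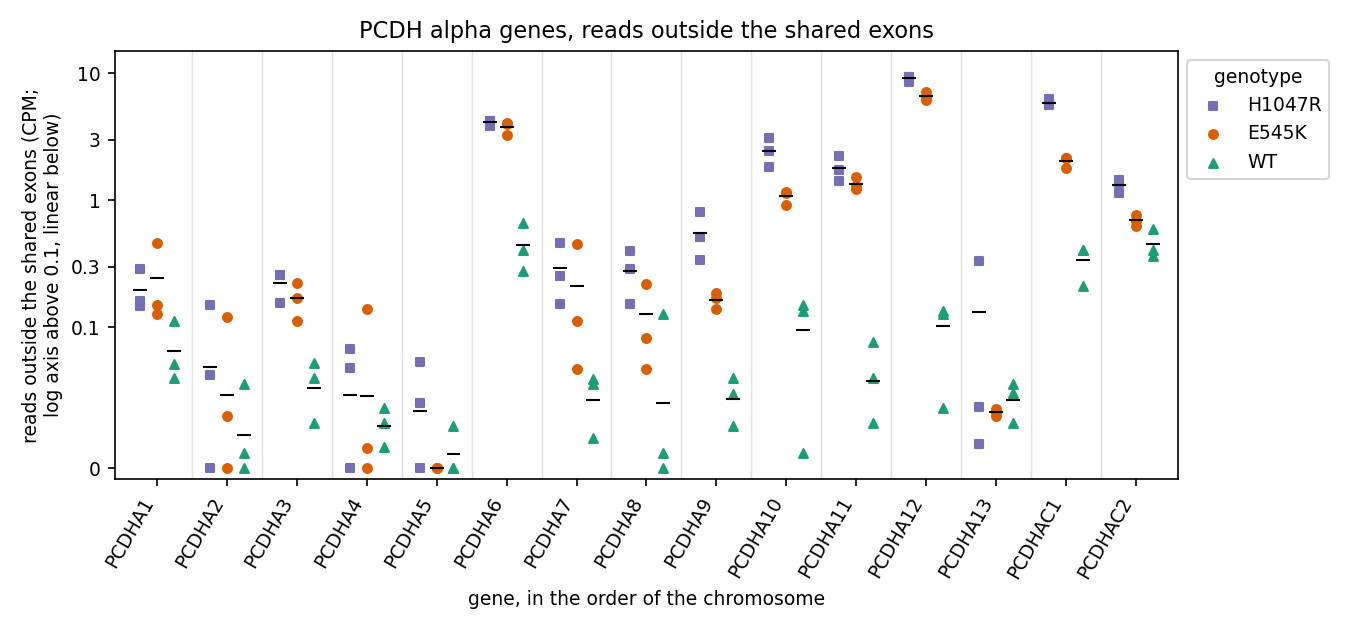
Reads outside the shared exons for the 15 alpha genes in the order of the chromosome (x axis), with each library as a point and the mean of 3 libraries as a bar (y axis, CPM, logarithmic above 0.1 and linear below). PCDHA6, PCDHA10, PCDHA11, PCDHA12 and PCDHAC1 stand well above WT in both knock-in lines, and PCDHA12 reaches 9.43 CPM in H1047R, while PCDHA5 stays near 0.

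Promoter sequences of 47 members were found by symbol in the RefSeq promoter table (GRCh38.p14), which holds 250 bases before and 50 after each start. CGCT is the core of the element that CTCF binds in these promoters. Read on either strand, CGCT was present in 46 of the 47, PCDHA9 being the exception, but so short a word was also present in 70.0% of all 35116 promoters in the table. Longer words around it differed between clusters. Each word given here was picked as one of its length held by the most members of its cluster. Its high share in that cluster thus follows from the choice and tests nothing. GATGTCGCT was held by 9 of 13 alpha promoters and by 0 of the beta and gamma ones, against 0.105% of all promoters, on either strand. The stretches below, with CGCT in capitals, are from alpha genes with many own reads, then from PCDHA8 and PCDHA5, which had few, and last from a C-type gene, to show how far the letters and the levels go together. All are on the plus strand of hg38.
PCDHA12 (chr5:140875234-140875277): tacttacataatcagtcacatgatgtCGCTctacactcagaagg
PCDHA6 (chr5:140827887-140827930): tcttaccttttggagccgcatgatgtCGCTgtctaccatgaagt
PCDHA11 (chr5:140868873-140868916): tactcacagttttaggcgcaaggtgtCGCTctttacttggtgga
PCDHA10 (chr5:140855831-140855874): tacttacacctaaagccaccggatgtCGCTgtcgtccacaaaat
PCDHA8 (chr5:140841120-140841163): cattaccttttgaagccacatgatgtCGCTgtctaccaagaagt
PCDHA5 (chr5:140821532-140821575): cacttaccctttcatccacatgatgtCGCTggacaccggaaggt
PCDHAC1 (chr5:140926244-140926287): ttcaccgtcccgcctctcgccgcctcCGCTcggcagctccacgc
The word was thus present in PCDHA12, with up to 9.43 CPM of own reads in a knock-in library, and in PCDHA5, with almost none, and it was absent from these windows of PCDHA11 and PCDHAC1, which also rose. The match of letters describes these windows and does not show binding.

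Genes of the beta cluster, which share no exons with each other, went in different directions. Summed, they had 42.9, 46.5 and 49.6 CPM in H1047R, 22.0, 22.2 and 22.5 CPM in E545K and 15.7, 14.4 and 16.0 CPM in WT. The 3 genotypes did not overlap, and the sum differed by 1.59 ± 0.06 in H1047R against WT, 0.53 ± 0.06 in E545K against WT and 1.06 ± 0.06 in H1047R against E545K on the log2 scale (adjusted p = 9.15e-12, 5.02e-06 and 8.15e-10, edgeR). Of the 15 beta genes tested, 10 rose and 1 fell in H1047R against WT, 7 rose and 3 fell in E545K against WT, and 8 rose and 2 fell in H1047R against E545K, beside 55.5%, 36.6% and 53.2% of all genes called. Their medians were 1.24, 0.59 and 0.94 on the log2 scale.

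PCDHB14, the highest beta gene per kilobase in H1047R and WT and below PCDHB2 in E545K, had 15.2, 16.1 and 16.2 CPM in H1047R, 6.25, 5.72 and 6.26 CPM in E545K and 5.20, 4.83 and 4.55 CPM in WT. H1047R stood far above both others, whereas E545K and WT lay close together without overlap. The log2 difference was 1.70 ± 0.07 in H1047R against WT (adjusted p = 2.57e-11), 0.32 ± 0.07 in E545K against WT (adjusted p = 0.00253) and 1.38 ± 0.07 in H1047R against E545K (adjusted p = 2.87e-10, edgeR). PCDHB13 followed the same order, with 6.68, 7.86 and 8.94 CPM in H1047R, 2.38, 2.46 and 2.46 CPM in E545K and 2.13, 2.01 and 2.15 CPM in WT. Its rise of 1.90 ± 0.11 in H1047R passed the test (adjusted p = 1.06e-09), and its difference of 0.21 ± 0.11 in E545K did not (adjusted p = 0.172, edgeR).

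In both knock-in lines PCDHB2 was raised, with 9.73, 10.6 and 10.5 CPM in H1047R, 6.35, 6.26 and 6.41 CPM in E545K and 2.06, 1.59 and 2.34 CPM in WT. The genotypes did not overlap, and the log2 differences from WT were 2.36 ± 0.10 and 1.66 ± 0.11 (adjusted p = 7.13e-11 and 1.28e-08, edgeR), H1047R given first. Of its exon bases, 43.9% are also annotated to other genes. The antisense gene PCDHB1-AS1 averaged 6.39 CPM in H1047R, 3.94 CPM in E545K and 1.19 CPM in WT, and reads of the genes that overlap cannot be told apart. PCDHB3 had 1.502, 1.73 and 2.54 CPM in H1047R, 0.659, 0.981 and 0.887 CPM in E545K and 0.327, 0.317 and 0.477 CPM in WT. PCDHB4 had 1.00, 1.19 and 1.81 CPM in H1047R, 0.638, 0.685 and 0.538 CPM in E545K and 0.193, 0.243 and 0.371 CPM in WT. Both genes stood in the order H1047R, E545K, WT with no overlap, and both passed the test in all 3 comparisons, with log2 differences of 2.37 ± 0.25 and 2.33 ± 0.28 in H1047R against WT.

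Opposite directions in the knock-in lines were seen at PCDHB11 and PCDHB12. PCDHB11 had 1.95, 1.89 and 1.85 CPM in H1047R, 0.301, 0.389 and 0.379 CPM in E545K and 0.959, 0.761 and 0.806 CPM in WT. Every H1047R library was above WT and every E545K library below it. The log2 difference was 1.17 ± 0.16 in H1047R against WT (adjusted p = 1.64e-05), -1.26 ± 0.18 in E545K against WT (adjusted p = 6.49e-05) and 2.42 ± 0.17 in H1047R against E545K (adjusted p = 2.15e-08, edgeR). PCDHB12 had 2.98, 2.91 and 3.28 CPM in H1047R, 0.897, 0.833 and 1.06 CPM in E545K and 1.115, 1.33 and 1.45 CPM in WT. Its rise of 1.24 ± 0.14 in H1047R had an adjusted p of 1.75e-06 and its fall in E545K, a log2 difference of -0.48 ± 0.15, an adjusted p of 0.0197 (edgeR). That fall lost its call with library totals as the only scaling (adjusted p = 0.0640) and without E545K library 1 or 2 or WT library 2 or 3 (adjusted p = 0.0565 to 0.0856, edgeR).

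PCDHB16 went the other way, with 0.668, 0.4002 and 0.557 CPM in H1047R, 1.53, 1.67 and 1.56 CPM in E545K and 0.706, 0.550 and 0.615 CPM in WT. H1047R overlapped with WT, and E545K stood above both. It rose by 1.34 ± 0.21 in E545K against WT (adjusted p = 0.000149), differed by -0.22 ± 0.21 in H1047R against WT, which did not pass the test (adjusted p = 0.411), and was lower in H1047R than in E545K by -1.55 ± 0.20 on the log2 scale (adjusted p = 1.22e-05, edgeR). Of the exon bases of PCDHB16, 24.9% are also annotated to other genes. Among these is ENSG00000279068, which averaged 0.202 CPM in H1047R, 0.459 CPM in E545K and 0.296 CPM in WT. PCDHB6, named after its values were seen, fell in both knock-in lines, with 0.0691, 0.0606 and 0.0922 CPM in H1047R, 0.0701, 0 and 0.0399 CPM in E545K and 0.163, 0.317 and 0.361 CPM in WT. These rest on 24, 35 and 48 counts in H1047R, 10, 0 and 4 counts in E545K and 22, 30 and 34 counts in WT. A count of 0 allows up to 3 counts, or 0.0223 to 0.0314 CPM in E545K libraries.

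**Figure D3:**
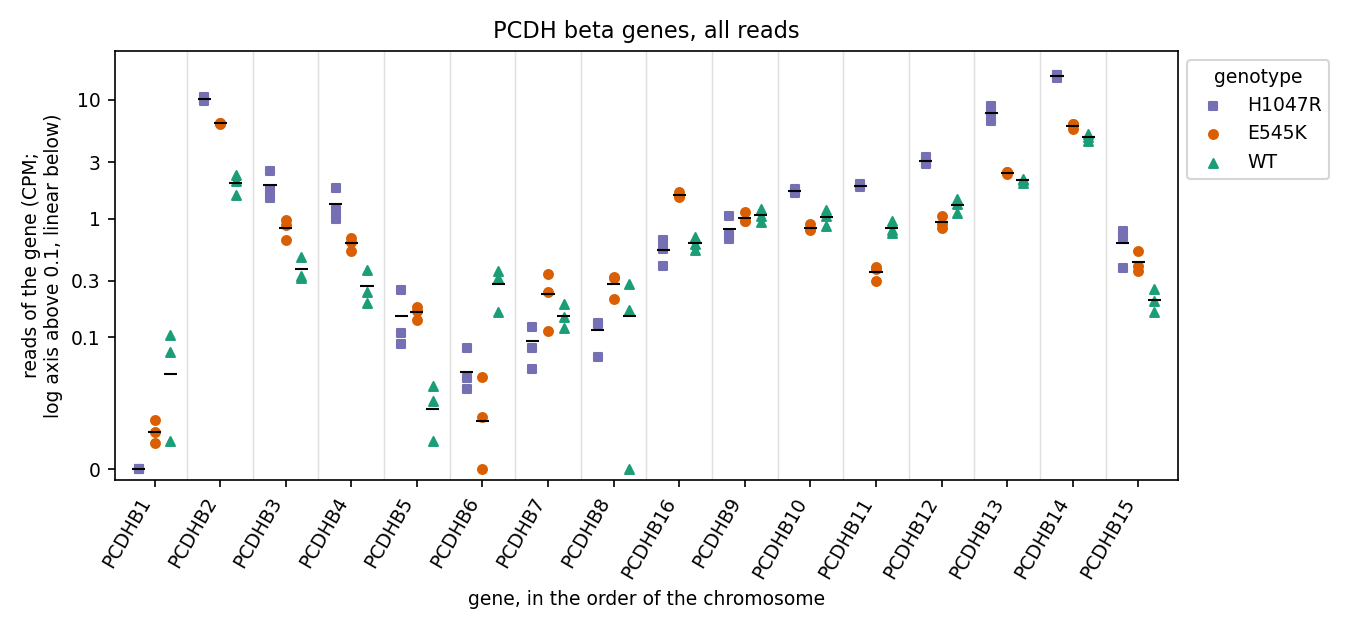
Reads of the 16 beta genes in the order of the chromosome (x axis), with each library as a point and the mean of 3 libraries as a bar (y axis, CPM, logarithmic above 0.1 and linear below). PCDHB11 and PCDHB12 lie above WT in H1047R and below it in E545K, PCDHB16 is high in E545K, and PCDHB14 is highest in H1047R at 15.2 to 16.2 CPM.

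Beta promoters shared another word, picked in the same way as the alpha word. GGTGGCGCT was held by 13 of 14 beta promoters and 0 of the alpha and gamma ones, against 0.501% of all promoters on either strand, and GGTGGCGCTGCA by 10 of the 14, against 0.0427%. The beta promoters below are those of genes whose levels went in different directions, with CGCT in capitals, all on the plus strand of hg38. PCDHB11 had no entry in the table.
PCDHB14 (chr5:141223253-141223296): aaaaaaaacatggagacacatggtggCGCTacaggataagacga
PCDHB13 (chr5:141213855-141213898): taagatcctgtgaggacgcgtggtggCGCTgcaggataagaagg
PCDHB2 (chr5:141094534-141094577): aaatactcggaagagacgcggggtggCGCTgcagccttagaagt
PCDHB4 (chr5:141121713-141121756): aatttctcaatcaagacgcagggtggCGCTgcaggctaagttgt
PCDHB12 (chr5:141208633-141208676): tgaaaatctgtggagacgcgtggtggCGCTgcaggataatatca
PCDHB16 (chr5:141182300-141182343): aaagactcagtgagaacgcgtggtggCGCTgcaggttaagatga
All 6 held GGTGGCGCT, PCDHB12 and PCDHB16 included, whose levels moved in opposite directions in E545K.

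The gamma cluster was the most abundant of the 3 in WT, and its sum changed by under 2-fold in both knock-in lines. With shared reads counted once it had 65.8, 66.7 and 68.3 CPM in H1047R, 52.6, 49.8 and 52.7 CPM in E545K and 35.9, 36.4 and 34.0 CPM in WT. The genotypes did not overlap. Summed counts rose by 0.88 ± 0.05 in H1047R against WT, by 0.57 ± 0.05 in E545K against WT and by 0.31 ± 0.05 in H1047R against E545K on the log2 scale (adjusted p = 2.69e-09, 8.08e-07 and 0.000198, edgeR). With shared reads counted once, these differences were 0.92 ± 0.04, 0.54 ± 0.04 and 0.37 ± 0.04. All 22 gamma genes were called higher in all 3 comparisons on their full counts, with medians of 0.87, 0.57 and 0.30 in that order, but the shared exons held 38.5%, 40.6% and 39.7% of the reads counted once in H1047R, E545K and WT. Outside the shared exons, 21 gamma genes could be tested. Of these, 12 rose and 1 fell in H1047R against WT, 7 rose and 2 fell in E545K against WT, and 6 rose and 0 fell in H1047R against E545K, beside backgrounds of 55.4%, 36.5% and 53.1% called.

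PCDHGC3, the C-type gene used outside the brain too, held 49.7%, 52.3% and 52.0% of the gamma reads outside the shared exons in H1047R, E545K and WT. Its own reads came to 21.5, 19.8 and 19.8 CPM in H1047R, 16.6, 15.5 and 16.0 CPM in E545K and 10.7, 11.2 and 11.4 CPM in WT, with no overlap between genotypes. They rose by 0.87 ± 0.05 in H1047R and 0.53 ± 0.06 in E545K against WT on the log2 scale (adjusted p = 2.98e-09 and 2.46e-06, edgeR). PCDHGC3 makes up a large part of the cluster, so its nearness to the cluster sum is not a separate result. The other gamma C-type genes had few own reads. PCDHGC4, which mouse studies tie to the survival of cortical interneurons, ranged from 0.299 to 0.563 CPM in H1047R, from 0.1203 to 0.308 CPM in E545K and from 0.106 to 0.171 CPM in WT. It rose in H1047R against WT by 1.46 ± 0.42 on the log2 scale (adjusted p = 0.00768, edgeR). PCDHGC5 reached at most 0.373 CPM in any library.

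PCDHGB5 was near 0 in WT and not in the knock-in lines. Outside the shared exons it had 4.51, 5.12 and 5.46 CPM in H1047R, 4.94, 4.98 and 5.59 CPM in E545K and 0, 0 and 0.0636 CPM in WT. In WT libraries 1 and 2 it was itself the lowest of the 22 genes, so its own reads there are 0 by construction, and in WT library 3 they were 6 reads. The knock-in lines overlapped with each other and lay far above WT. The fitted log2 differences of 8.04 and 8.07 (adjusted p = 4.40e-11 in H1047R and 1.70e-10 in E545K, edgeR) depend on how a count of 0 is handled and are not a measure of size. They contrast with 1.13 ± 0.06 and 0.89 ± 0.06 for the full count of the gene, most of which comes from exons that other gamma genes share. The knock-in lines did not differ at PCDHGB5 beyond the spread, with a difference of -0.04 ± 0.16 on the log2 scale (adjusted p = 0.866, edgeR).

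PCDHGB4, a neighbour named after its values were seen, is set beside PCDHGB5 because a stretch of their promoters is nearly the same. In these 150 bases, which end before the start of either gene, 143 were identical, and both hold CGCT 3 times, in capitals, on the plus strand of hg38. Over all 247 bases compared without gaps, 70.4% were identical.
PCDHGB5 (chr5:141397794-141397943): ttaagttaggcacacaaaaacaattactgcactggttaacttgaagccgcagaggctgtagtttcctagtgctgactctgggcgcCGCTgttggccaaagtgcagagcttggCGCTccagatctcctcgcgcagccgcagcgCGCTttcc
PCDHGB4 (chr5:141387548-141387697): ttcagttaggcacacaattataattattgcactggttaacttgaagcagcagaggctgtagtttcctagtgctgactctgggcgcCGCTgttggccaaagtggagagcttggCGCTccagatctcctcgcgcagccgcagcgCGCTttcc
The own reads of PCDHGB4 were 0.155, 0.170 and 0.225 CPM in H1047R, 0.238, 0.0925 and 0.0399 CPM in E545K and 0.126, 0.0634 and 0.0424 CPM in WT. These overlapped between all 3 genotypes, and no difference passed the test (adjusted p = 0.102, 0.454 and 0.453 in H1047R against WT, E545K against WT and H1047R against E545K, edgeR). PCDHGB4 and PCDHGA8 share more exon bases with other members than the rest do, 4447 each against 2177 in every gamma gene, so the estimates of own reads for this pair still hold reads of both.

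PCDHGB7 and PCDHGA10 show how shared exons can hide a direction. PCDHGB7 was called higher in both knock-in lines on its full count, by 0.68 ± 0.06 in H1047R and 0.36 ± 0.06 in E545K. Its reads outside the shared exons came to 2.50, 2.48 and 3.08 CPM in H1047R, 1.45, 1.74 and 2.003 CPM in E545K and 3.95, 3.72 and 3.25 CPM in WT. They were lower in every knock-in library than in any WT library, by -0.44 ± 0.13 in H1047R (adjusted p = 0.0103) and -1.08 ± 0.14 in E545K (adjusted p = 2.21e-05, edgeR) on the log2 scale. The fall in H1047R lost its call without H1047R library 2 or WT library 1 (adjusted p up to 0.0539, edgeR), and the fall in E545K held in all 12 alternatives run. PCDHGA10 had 3.59, 3.84 and 4.40 CPM of its own in H1047R, 1.72, 1.81 and 1.83 CPM in E545K and 2.23, 2.25 and 2.51 CPM in WT. It rose by 0.76 ± 0.11 in H1047R (adjusted p = 2.38e-05), and in E545K it was lower by -0.38 ± 0.12 (adjusted p = 0.0166, edgeR), a call lost in 3 of 12 alternatives, namely with library totals as the only scaling and without E545K library 1 or WT library 3 (adjusted p up to 0.0918). In H1047R against E545K it was higher by 1.14 ± 0.11 (adjusted p = 4.87e-07, edgeR).

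Some gamma genes with few own reads also rose. PCDHGA12 had 1.35, 1.597 and 1.87 CPM in H1047R, 1.01, 0.916 and 0.957 CPM in E545K and 0.572, 0.698 and 0.530 CPM in WT, separate in all 3 genotypes. PCDHGB6 rose by 1.91 ± 0.28 and 1.38 ± 0.29 on the log2 scale, and PCDHGA1 by 2.29 ± 0.33 and 1.06 ± 0.35, H1047R against WT given before E545K against WT. PCDHGA8 had at most 0.809 CPM of its own and rose by 1.48 ± 0.34 in H1047R and 1.06 ± 0.35 in E545K. The rises of PCDHGA1 and PCDHGA8 in E545K lost their calls in 4 and 5 of 12 alternatives, all of them fits that left out an E545K or a WT library (adjusted p up to 0.137 and 0.1196, edgeR). PCDHGA3 was the lowest gamma gene in every knock-in library and in 1 WT library and had at most 0.0297 CPM of its own.

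**Figure D4:**
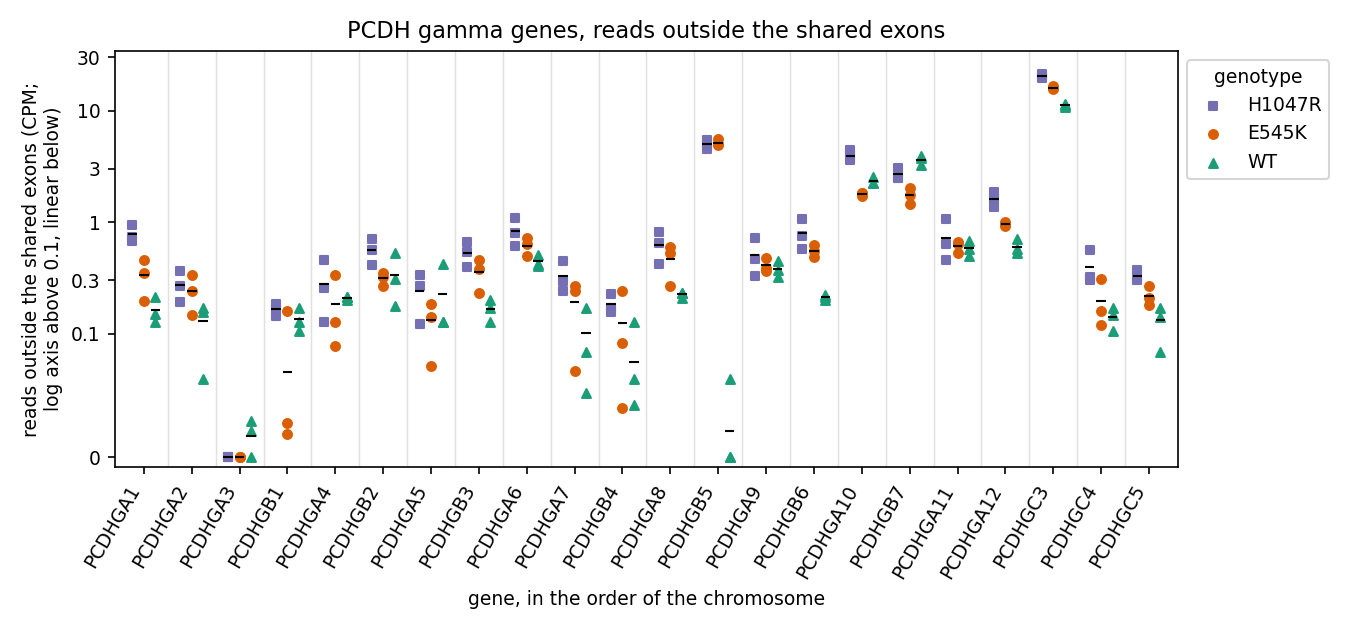
Reads outside the shared exons for the 22 gamma genes in the order of the chromosome (x axis), with each library as a point and the mean of 3 libraries as a bar (y axis, CPM, logarithmic above 0.1 and linear below). PCDHGB5 lies near 5 CPM in both knock-in lines and at 0 to 0.0636 CPM in WT, PCDHGB7 is highest in WT, and PCDHGC3 is the highest gene in every genotype.

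The word of 8 letters picked in the same way from the gamma promoters was GCCGCTGT. It was held by 11 of 20 gamma promoters and 0 of the alpha and beta ones, against 1.63% of all promoters on either strand. At 9 letters, the length of GATGTCGCT and GGTGGCGCT, the gamma word was GCGCCGCTG. That one was held by 10 of the 20, against 1.28% of all promoters. These 4 promoters belong to the most abundant gamma gene, to the gene whose own reads fell, to PCDHGA10 and to PCDHGA1, with CGCT in capitals, on the plus strand of hg38.
PCDHGC3 (chr5:141475870-141475913): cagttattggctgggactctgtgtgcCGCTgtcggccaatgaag
PCDHGB7 (chr5:141417597-141417640): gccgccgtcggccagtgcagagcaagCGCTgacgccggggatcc
PCDHGA10 (chr5:141412921-141412964): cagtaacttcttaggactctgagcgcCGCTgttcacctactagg
PCDHGA1 (chr5:141330393-141330436): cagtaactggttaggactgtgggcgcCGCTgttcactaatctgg
The window of PCDHGB7 does not hold GCCGCTGT, and those of the other 3 do. Across the 17 windows of 44 bases shown for the 3 clusters, the CGCT in capitals stood 29 to 95 bases before the start. Each window was placed on the CGCT before the start whose preceding letters were held by the most promoters of its cluster. Other CGCT in the same promoter were passed over, so the distances and the likeness of the windows depend on this choice.

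**Figure D5:**
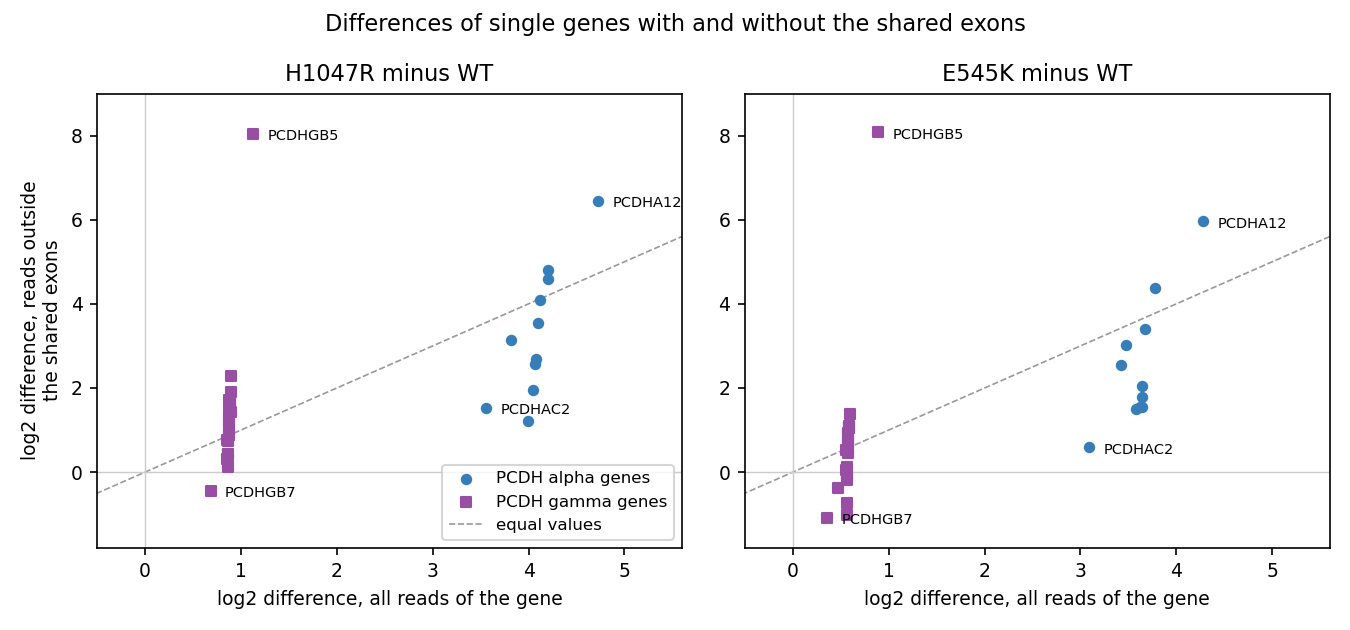
Log2 differences of alpha and gamma genes from WT for all reads of the gene (x axis) and for reads outside the shared exons (y axis), for H1047R (left) and E545K (right), with a dashed line for equal values. On the x axis the genes of a cluster bunch together, and on the y axis they spread out, with PCDHGB5 at 8.04 and 8.07, PCDHA12 at 6.44 and 5.96, and PCDHGB7 below 0.

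Over all genes tested, 27.4% were higher and 28.1% lower in H1047R against WT, and 17.7% were higher and 18.9% lower in E545K against WT, which is the background for the lists of other genes. Of 18 neighbours of the clusters on chromosome 5, 4 rose and 9 fell in H1047R against WT, and 0 rose and 7 fell in E545K against WT, with medians of -0.16 and -0.09 on the log2 scale beside 0.021 and 0.003 over all genes tested. TAF7, a subunit of the general transcription factor TFIID whose gene lies between the beta and gamma clusters, averaged 80.8 ± 8.89 CPM in H1047R, 60.5 ± 1.01 CPM in E545K and 64.6 ± 0.403 CPM in WT (SD, n = 3 each). It rose by 0.32 in H1047R and differed by -0.09 in E545K, which did not pass the test. DIAPH1, an actin nucleator beyond the gamma cluster, fell by -0.30 in H1047R and -0.25 in E545K on the log2 scale.

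Among the 12 genes of cohesin and CTCF, 2 rose and 5 fell in H1047R against WT, and 2 rose and 4 fell in E545K against WT, with medians of -0.08 and -0.03. CTCF averaged 37.6 CPM in H1047R, 36.8 CPM in E545K and 32.8 CPM in WT, differences of 0.19 and 0.16 on the log2 scale that both passed the test. SMC1A, a cohesin ring subunit, moved in opposite directions, with 54.3 CPM in H1047R, 95.4 CPM in E545K and 68.2 CPM in WT. Of 14 repressors and DNA methylation genes, 5 rose and 6 fell in H1047R and 4 rose and 2 fell in E545K, with medians of 0.01 and 0.03. TET1, which oxidises methylated DNA, averaged 4.10 CPM in H1047R, 3.09 CPM in E545K and 2.36 CPM in WT and rose in both. DNMT3B, a methyltransferase that acts on clustered protocadherin promoters in mouse, averaged 2.42 CPM in H1047R, 3.83 CPM in E545K and 3.41 CPM in WT. It fell by -0.49 in H1047R, and its difference of 0.17 in E545K did not pass the test. SMCHD1, a repressor of these clusters in mouse, averaged 51.0 CPM in H1047R, 56.0 CPM in E545K and 50.7 CPM in WT, with a rise of 0.14 in E545K that passed the test and a difference of 0.01 in H1047R that did not.

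Of 12 non-clustered protocadherins listed, 8 could be tested, of which 2 rose and 3 fell in H1047R against WT and 0 rose and 3 fell in E545K against WT, with medians of 0.04 and -0.002. PCDH1 averaged 136 CPM in H1047R, 129 CPM in E545K and 177 CPM in WT and fell in both. PCDH9 averaged 57.9 CPM in H1047R, 18.9 CPM in E545K and 28.6 CPM in WT, up in H1047R and down in E545K. Of 7 FAT and Dachsous cadherin genes, 3 rose and 3 fell in H1047R and 1 rose and 1 fell in E545K, with medians of 0.65 and 0.09. FAT1, a giant cadherin, averaged 455 CPM in H1047R, 264 CPM in E545K and 195 CPM in WT. Genes of proteins that protocadherins bind or signal through, such as focal adhesion kinases and the WAVE actin complex, were listed too, with 2 of 15 higher and 9 lower in H1047R, 2 higher and 8 lower in E545K, and medians of -0.21 and -0.15. PTK2B, one of these kinases, averaged 172 CPM in H1047R, 155 CPM in E545K and 256 CPM in WT. Of 8 protease genes, ADAM10 and the subunits of gamma-secretase among them, 3 rose and 2 fell in H1047R and 0 rose and 1 fell in E545K, with medians of 0.05 and -0.08. The calls of all these lists come from the same edgeR fit over 26412 genes.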

How the data were processed

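Ribosome-depleted RNA of 9 libraries was sequenced as 150 bp pairs, per the labels' protocols. The deposited values are raw counts per gene, made by the authors with featureCounts 2.0.0 on hg38 and GENCODE 32, per the file headers; a read was counted for every gene it overlaps, mates were counted singly and strand was not used. Trim Galore 0.4.0, STAR and SAMtools 1.5 are named in the submitters' processing notes. WT and E545K shared a table. Gene symbols came from GENCODE 44, which matched 60295 of 60609 identifiers.

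Counts were tested with edgeR 4.0.16 in R 4.3.3 (low-count filter, TMM scaling, quasi-likelihood test, 1 model over 9 libraries), with Benjamini-Hochberg adjustment over 26412 genes and a threshold of 0.05. The same steps were tested on simulated data with known changes. Cluster sums and reads outside the shared exons were each fitted in a table of all genes; the second, and the sums with shared reads counted once, were chosen after seeing the data. DESeq2 1.42.0 and other scalings, filters and left-out libraries were alternatives.

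Members named in full were the 3 most abundant of each cluster, up to 3 largest called rises and falls per cluster and comparison with at least 0.5 CPM, the C-type genes and the lowest alpha and gamma gene. Of the other lists, up to 3 largest called changes per comparison and 1 in the other direction were eligible; CTCF, SMCHD1, DNMT3B, TAF7 and DIAPH1 are given for their role or place, with their values known. The members and lists were chosen with earlier results of these data known. Limits from a count of 0 cover counting error only.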

Additional observations from a re-analysis of the deposited data

Results flagged for a closer look

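The effects of the knock-in lines differed at PCDHB11 and PCDHB12, and the difference itself was tested. Both were flagged because they were called in all 3 comparisons with opposite directions against WT. Passing the direct test was thus part of the choice. PCDHB11 was 1.17 higher in H1047R than in WT and its log2 difference in E545K against WT was -1.26, so that H1047R stood above E545K by 2.42 on the log2 scale (adjusted p = 2.15e-08, edgeR), in 3 of 3 libraries of each line. PCDHB12 was 1.24 higher in H1047R than in WT and its log2 difference in E545K against WT was -0.48, with H1047R above E545K by 1.72 (adjusted p = 8.73e-08, edgeR), again in 3 of 3 libraries. The fall of PCDHB12 in E545K lost its call in several alternatives, as given above. H1047R libraries come from another deposited table than E545K and WT libraries, and the part of the table in these differences was not tested.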

How the results depend on the processing

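Each cluster sum kept its direction and its call in all 3 comparisons under every alternative run. Over these, the log2 difference of the alpha sum ranged from 3.89 to 4.16 in H1047R against WT, 3.29 to 3.73 in E545K against WT and 0.32 to 0.60 in H1047R against E545K. Leaving out 1 library at a time gave 47 to 49 members called in H1047R against WT, 45 to 47 in E545K against WT and 46 to 48 in H1047R against E545K. Counting only reads outside the shared exons, chosen after seeing the data, called 34 members in H1047R against WT (32 higher and 2 lower of 47 tested), 27 in E545K against WT (22 higher and 5 lower of 47 tested) and 21 in H1047R against E545K (19 higher and 2 lower of 47), beside backgrounds of 55.4%, 36.5% and 53.1%. Among the members named in full, it turned PCDHGA10 in E545K against WT (-0.38) and PCDHGB7 in both comparisons with WT to the other direction. For PCDHGB7 the values were -1.08 in E545K and -0.44 in H1047R. Also among these, PCDHGB5 in H1047R against E545K lost its call (-0.036, adjusted p = 0.866, edgeR), and so did 8 other results. These were PCDHAC2, PCDHGC4 and PCDHGC5 in E545K against WT, and PCDHA6, PCDHA11, PCDHGA8, PCDHGB6 and PCDHGC5 in H1047R against E545K. Members not named in full lost calls or changed direction too, such as PCDHGA2 and PCDHGA9 (calls) and PCDHGB1 (direction) in E545K against WT. This alternative leaves out the reads that genes share with the rest of their cluster. Same-numbered libraries did not deviate together (correlations of -0.07 to 0.09), and with the replicate number as a block 48, 47 and 46 members were called in H1047R against WT, E545K against WT and H1047R against E545K. Depth limits the low members, where 3 counts correspond to up to 0.0315 CPM in a WT library.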
